A study of Homo sapiens with 9 samples.

Results

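HaCaT cells are human keratinocytes, the cells that build the epidermis, in the form of an immortal line that grew out of adult skin without an added oncogene. The 3 libraries described here come from HaCaT cells kept for 24 h in DMEM, a standard culture medium, with no particle added, and they were chosen by that label from 9 libraries in all. The other 6 libraries, from cells given fragmented polystyrene, are not used. The growth medium held fetal bovine serum. Total RNA was enriched for poly(A) transcripts before the libraries were made. The labels do not say whether the 3 libraries come from separate cultures, so the spread between them may be technical.

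In the epidermis, basal keratinocytes divide while attached to the basement membrane through integrins and hemidesmosomes, and make the keratin pair KRT5 and KRT14. On leaving that layer they stop dividing, change to KRT1 and KRT10, and then build the cornified envelope, a shell of cross-linked proteins such as loricrin and filaggrin. Keratins are intermediate filament proteins that assemble from a type I and a type II partner. Simple epithelia, such as those of glands, use KRT8 with KRT18 and KRT7 with KRT19. Keratinocytes also take part in skin immunity through cytokines and receptors.

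Levels are given in CPM, the reads of a gene per 1000000 reads of its library, in replicates 1, 2 and 3 in that order or as mean ± SD (n = 3). A gene was called present when it had at least 1 CPM in each of the 3 libraries. CPM rises with gene length, so rankings, medians and sums in CPM go by reads. Where different genes are named together in CPM, their reads and not their levels per length are given. Levels of different genes can be compared only on the authors' length-scaled values. The libraries held 21955992, 25372399 and 23035888 counts. A count of 0 allows up to 3 counts, which is 0.137, 0.118 and 0.130 CPM. Of 52402 gene symbols 12351 were present, which is 23.6%, and of 19310 protein-coding symbols 11199 were present, which is 58%. These shares are the background for every list below.

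Absence could not be read alike for all genes. The count table repeats some symbols on several rows, and these symbols were often empty. Among protein-coding symbols on 1 row, 60.1% were present and 15.6% had no count in any of the 3 libraries. Among the 1004 on more than 1 row, 19.4% were present and 50.3% had no count. ACTN4 and HRAS, which most cells use, and ABCF1, GNL1 and MIF had no count in any library, and all 5 stand on more than 1 row. For such genes a value of 0 is given only as listed at 0. No source used here tells how the authors' counting treated them, and its part in any value was not tested.

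Promoter sequences are shown for 5 keratin genes, some present and some not. KRT5 and KRT10, which differ in level by far, mark the basal and the first suprabasal layer, KRT9 is a keratin of palms and soles, and KRT2 and KRT4 mark the upper epidermis and the mucosa. The 60 bases before their annotated start are given on the gene's strand (RefSeq, GRCh38.p14, minus strand of the genome for all 5), with TATAA in capitals where it occurs.
KRT5, chr12:52520395-52520454: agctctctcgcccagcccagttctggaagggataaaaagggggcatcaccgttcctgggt
KRT10, chr17:40822615-40822674: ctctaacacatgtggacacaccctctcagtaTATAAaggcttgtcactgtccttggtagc
KRT9, chr17:41572060-41572119: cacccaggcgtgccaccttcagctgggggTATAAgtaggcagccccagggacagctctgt
KRT2, chr12:52652212-52652271: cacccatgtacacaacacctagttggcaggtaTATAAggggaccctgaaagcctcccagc
KRT4, chr12:52814117-52814176: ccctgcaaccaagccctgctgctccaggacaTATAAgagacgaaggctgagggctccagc
The motif TATAA, the core of the TATA box, was searched from 45 to 16 bases before the start. It was found on the gene's strand in 58.8% of the 34 keratin genes with a RefSeq promoter (20 genes) and in 4.59% of all 21306 promoters. On the opposite strand it was found in 1 of the 34 keratin genes (2.94%) and in 1.87% of all promoters. Among keratins with a promoter, 2 of 4 that were present and 18 of 30 that were not held the motif. Only 4 of the 14 keratins present had a RefSeq promoter, and KRT14 and KRT19 had none. The promoter of KRT5, the highest of the 5 genes, has no TATAA in that window, and the promoters of KRT2 and KRT4, which were not present, have it. A match is a description of letters and not of a binding site.

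Untreated HaCaT cells expressed basal and simple-epithelial keratins side by side, with less of the suprabasal KRT10 and KRT1 near the limit of 1 CPM. In bulk RNA a low level in all cells and a higher level in few cells cannot be told apart. Of 54 keratin genes 14 were present (25.9%): 9 of 28 type I and 5 of 26 type II genes. The median level over the 54 genes, 10 of which stand on more than 1 row, was 0.0152 CPM. Keratins held 0.913 ± 0.0482% of all counts. Of the 40 keratins that were not present, 10 type I genes stand on more than 1 row (KRT12, KRT20, KRT23, KRT31, KRT33A, KRT33B, KRT34, KRT37, KRT39 and KRT40), and their low values are uncertain.

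KRT19 (chr17:41523617-41528308 in RefSeq, GRCh38.p14), the smallest keratin and a partner of KRT7 and KRT8 in simple epithelia, had 2883, 3078 and 2599 CPM. KRT5 (chr12:52514575-52520394), the type II keratin of basal cells, had 2201, 1904 and 2256 CPM. Both were high in every library, with opposite order: KRT19 was highest in replicate 2 and lowest in replicate 3, and KRT5 the reverse. KRT8, of simple epithelia, had 1325, 1461 and 1132 CPM, and KRT7, of glands and ducts, had 1153, 1178 and 957 CPM. KRT18, the usual partner of KRT8, had 455, 491 and 354 CPM. All 3 of these simple-epithelial keratins were highest in replicate 2 and lowest in replicate 3. KRT15, a basal and hair-follicle stem cell keratin, had 435, 357 and 398 CPM. KRT14, the textbook partner of KRT5, had only 137, 145 and 125 CPM.

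On the length-scaled values, which can be set side by side between genes, KRT19 stood first at 1700.3 ± 162 and did not overlap with the next. KRT5 at 775 ± 63.5, KRT8 at 624 ± 86 and KRT7 at 558 ± 69.5 followed, and neighbours among these 3 overlapped between libraries. KRT18 at 259 ± 45.3 and KRT15 at 182 ± 18 came below them without overlap. KRT17 at 106 ± 9.87 and KRT16 at 105 ± 7.67, keratins of injured and hyperproliferative epidermis, overlapped with each other. KRT6A, of the same setting, at 78.4 ± 6.99 overlapped with KRT14 at 71.8 ± 6.05. KRT10 reached 28 ± 2.71, and KRT13, a mucosal keratin, at 11.5 ± 1.21 overlapped with KRT80 at 11.2 ± 1.23. KRT9 closed the order at 1.7 ± 0.291.

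**Figure D1:**
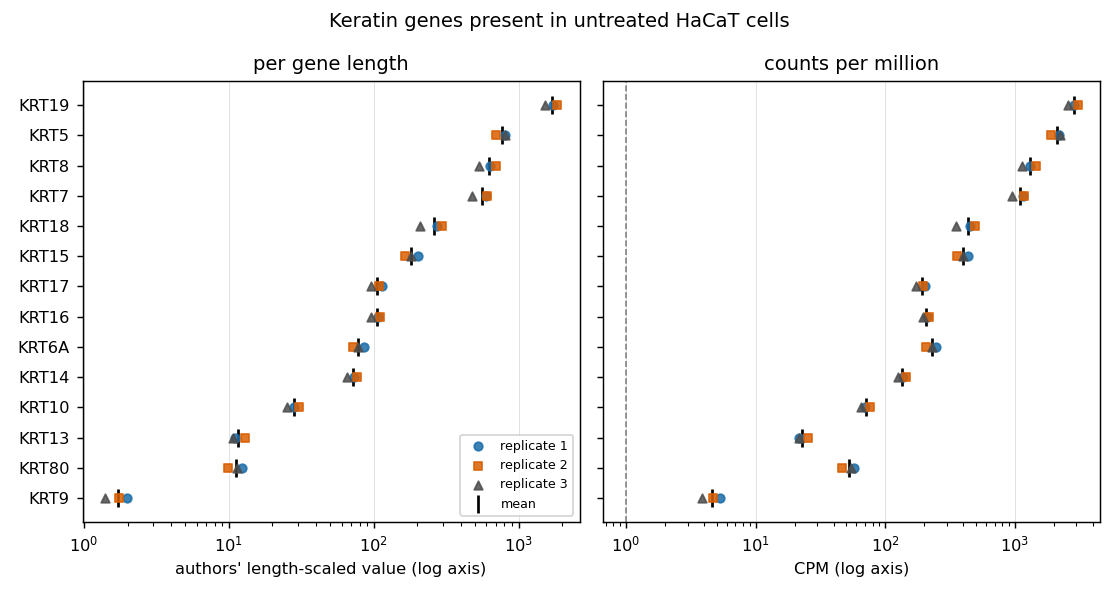
The 14 keratin genes present, ordered by length-scaled value. The left panel shows the authors' length-scaled value and the right panel CPM, both on log axes, with 1 point per library and a bar at the mean; the dashed line is 1 CPM. KRT19 lies at a mean of 1700 on the left axis and KRT9 at 1.70, and the 3 libraries of a gene lie close to each other.

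The partner keratins were far from equal. Per length, KRT5 stood at 11.1, 9.10 and 12.4 times KRT14 in the 3 libraries (10.9 ± 1.68). KRT8 stood at 2.42 ± 0.118 times KRT18, and KRT7 reached 0.328 ± 0.0138 of KRT19. Summed over all members, however, type I and type II keratins stood at a ratio of 1.20 ± 0.0565. KRT14, KRT16 and KRT17 have close copies in the genome, and so have KRT8, KRT18 and KRT19, so that the authors' counting could have moved reads between copies. The part of such copies in these ratios was not tested.

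The suprabasal pair was split. KRT10 had 70.4, 77.1 and 65 CPM and was present in all libraries. KRT1, its partner in the spinous layer, had 1.09, 0.67 and 1.22 CPM and fell below 1 CPM in replicate 2. KRT2 and KRT77, which come later or in sweat ducts, were at 0.0152 and 0.0869 CPM on average. Per length, KRT5 stood at 28.0 ± 4.70 times KRT10. Among hair keratins KRT86 had 0.501, 0.631 and 0.304 CPM.

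KRT6A, KRT6B and KRT6C show how near copies limit a keratin call. KRT6A had 249, 209 and 230.1 CPM, while KRT6B had 0.0911, 0.236 and 0 CPM and KRT6C had 3, 1 and 1 counts. The longest open reading frames of their GENCODE 29 transcripts have 1695 bases each. KRT6A was 97.5% identical to KRT6B (43 differences) and 97.9% identical to KRT6C (35 differences), and KRT6B was 98.5% identical to KRT6C (26 differences). Coding bases 676 to 747, counted from the start codon, hold 10 positions at which the 3 copies are not alike, shown in capitals.
KRT6A: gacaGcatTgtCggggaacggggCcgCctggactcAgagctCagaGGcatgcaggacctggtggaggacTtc
KRT6B: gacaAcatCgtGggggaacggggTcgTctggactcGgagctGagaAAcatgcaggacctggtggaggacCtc
KRT6C: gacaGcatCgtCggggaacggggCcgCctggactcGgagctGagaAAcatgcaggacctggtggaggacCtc
Of all stretches of 50 bases in the KRT6A transcript, 62.8% occur in neither of the other copies. Among the 3 copies, reads from such stretches can be given to KRT6A alone. Other genes were not compared, and such stretches were not counted for KRT6B and KRT6C. The counts of KRT6B and KRT6C were near 0 in these libraries.

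Of 26 integrin genes 14 were present (53.8%), a share near the background, with a median over the list of 3.03 CPM. Of 22 genes for the basement membrane and hemidesmosome 18 were present (81.8%), with a median of 140.3 CPM. The 26 integrin genes all stand on 1 row. ITGB4, which pairs with ITGA6 in hemidesmosomes, had 616, 532 and 646 CPM, and ITGA6 had 349, 276 and 439.7 CPM. ITGA3, part of the laminin receptor of migrating keratinocytes, had 384, 352 and 388 CPM. ITGB1, its partner, had 319, 276 and 400.4 CPM. In each of these 4 genes replicate 3 was highest and replicate 2 lowest.

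ITGAV, the alpha chain of receptors for vitronectin and fibronectin, had 164, 150.0 and 245 CPM, and its partners ITGB5, ITGB6 and ITGB8 had means of 134 ± 7.61, 77.6 ± 12.9 and 86.7 ± 19.7 CPM. ITGB6, which activates TGF-beta and is known for its rise in wounded epithelium, was thus present in all libraries. ITGA2, of the collagen receptor, had 125, 88.4 and 163 CPM. ITGA5, the fibronectin receptor chain, had 28.8 ± 4.01 CPM, and ITGAE, known from T cells that bind E-cadherin, had 28.7 ± 4.15 CPM. ITGA4, ITGA1 and ITGAM were present at low levels, between 1.93 and 4.92 CPM on average. ITGB2, the shared beta chain of leukocytes, had 0.0911, 0 and 0.0434 CPM, and ITGB3, of platelets, had no count in any library. ITGA8 and ITGAD also had none.

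Per length, ITGB4 led the integrins at 84.8 ± 6.37, followed by ITGB1 at 70.5 ± 12, ITGA3 at 62.7 ± 2.3 and ITGA6 at 52 ± 10.4. Neighbours among these 4 overlapped between libraries, and ITGB5, next at 34.3 ± 1.48, lay below ITGA6 without overlap. ITGB4 stood at 1.66 ± 0.221 times ITGA6, and ITGA3 stood at 0.905 ± 0.136 of ITGB1. LAMB3 and LAMA3, chains of the anchoring laminin of skin, had 773, 763 and 759 CPM for LAMB3 and 133, 95.5 and 165 CPM for LAMA3. Per length LAMB3 stood at 8.58 ± 2.23 times LAMA3. COL17A1, a hemidesmosome collagen, had 387, 324 and 416 CPM, PLEC, the plectin that ties keratin to the hemidesmosome, had 487, 436 and 572 CPM, and COL7A1, of anchoring fibrils, had 353, 337 and 324 CPM. LAMA5, of the general epithelial laminins, had 313, 255 and 332 CPM and CD151, a tetraspanin bound to laminin receptors, had 257, 248 and 236 CPM. LAMA1, LAMA2, LAMA4 and NID1 were not present.

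**Figure D2:**
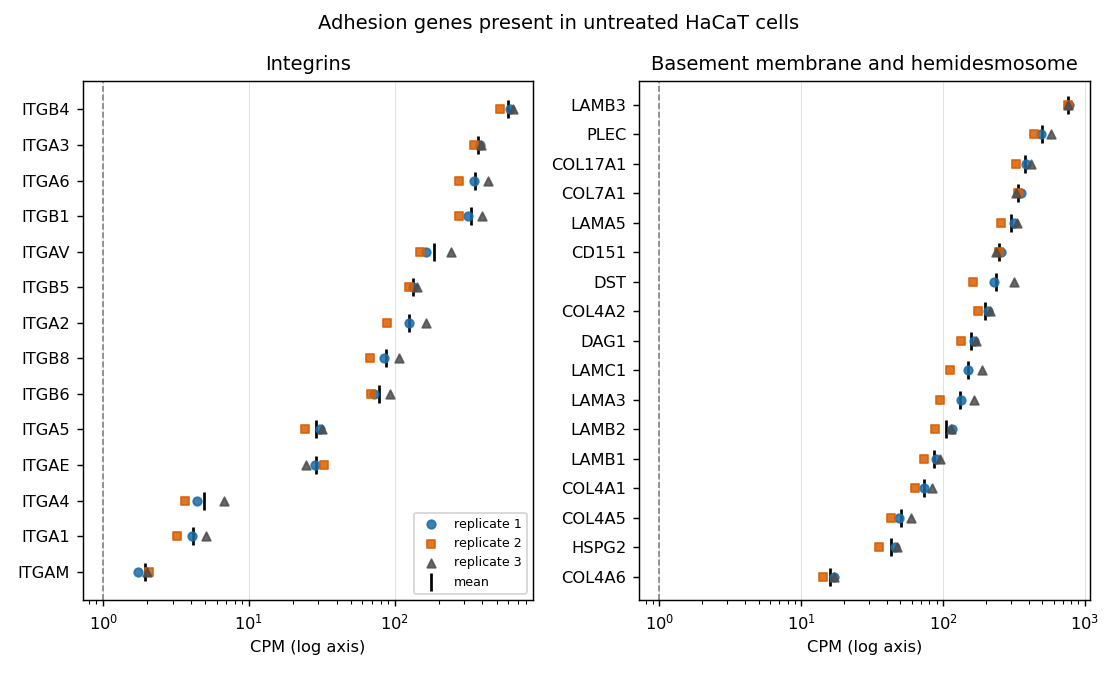
CPM on a log axis for the 14 integrin genes (left) and 17 of the 18 basement membrane and hemidesmosome genes (right) that were present, with 1 point per library, a bar at the mean and a dashed line at 1 CPM. Most genes keep the order of replicate 2 lowest and replicate 3 highest, as in 12 of 14 integrins for each of these 2 positions. Over all 9289 symbols with a mean of at least 10 CPM, replicate 2 was lowest in 48.2% and replicate 3 highest in 47.0%.

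Contacts between cells were also well represented. Of 15 desmosome genes 11 were present (73.3%), and of 26 genes of adherens, tight and gap junctions 21 (80.8%), with medians of 136 and 63.4 CPM. JUP, the plakoglobin shared by desmosomes and adherens junctions, had 1194, 1155 and 1109 CPM, and DSP, desmoplakin, had 458, 331 and 589 CPM. PKP1 and PKP3, plakophilins that bind desmoplakin, had 518, 449 and 559.5 CPM for PKP1 and 401, 414 and 373 CPM for PKP3. The desmosomal cadherins known from the lower layers were present: DSG2 had 252, 190.4 and 329 CPM, DSG3 136 ± 23 CPM and DSC3 186 ± 38.3 CPM. Of those of the upper layers, DSG1 had no count and DSC1 a mean of 0.11 CPM. CDSN, corneodesmosin, a secreted desmosome protein of the upper layers, had a mean of 0.0283 CPM and stands on more than 1 row.

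The P-cadherin gene CDH3 had 231, 219 and 226 CPM and the E-cadherin gene CDH1 had 125 ± 16.7 CPM. The N-cadherin gene CDH2, more often seen in mesenchymal and neural cells, was present too, with 58.5, 58.1 and 63.3 CPM. Per length these genes stood at 50.03 ± 1.42, 21.4 ± 2.48 and 12.2 ± 0.192. CLDN1, a claudin of epidermal tight junctions, had 445, 375 and 505 CPM, and CLDN7 and CLDN4 had 220.0, 249 and 186 CPM for CLDN7 and 195, 241 and 170.2 CPM for CLDN4. Among connexins GJA1 had 39.3 ± 3.31 CPM and GJB5 33.7 ± 4.68 CPM, while GJB2 had 0.236 ± 0.11 CPM and GJB6 no count. Per length GJB5 stood at 21.9 ± 3.24 and GJA1 at 10.2 ± 0.742. TJP1, which stands on more than 1 row, had 1.41, 1.69 and 2.3 CPM.

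Genes of early differentiation were present at a share near the background, and those of the cornified envelope were almost silent. Of 24 early differentiation genes 15 were present (62.5%), with a median of 2.81 CPM. Of 36 cornified envelope genes 4 were present (11.1%), with a median of 0.0283 CPM, and 14 had no count in any library. All 14 stand on 1 row of the count table. The 36 envelope genes together held 21.6, 19.6 and 23.8 CPM.

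SFN, the 14-3-3 sigma of stratified epithelia, had 2064, 2488 and 1728 CPM. The calcium-binding S100A14 and S100A16 had 597, 736 and 522 CPM for S100A14 and 205, 209 and 174 CPM for S100A16. All 3 of these genes were highest in replicate 2 and lowest in replicate 3. SERPINB5, maspin, had 312, 285 and 332 CPM, and CSTA, a cysteine protease inhibitor that is built into the envelope, had 119, 114 and 105 CPM. The envelope scaffold genes PPL, periplakin, and EVPL, envoplakin, had 107, 80.7 and 116 CPM for PPL and 68.7, 65.2 and 68.8 CPM for EVPL. IVL, involucrin, an early substrate of transglutaminase, had 1.87, 1.66 and 1.95 CPM, and TGM1, the transglutaminase of keratinocytes, had 3.14, 2.4 and 2.43 CPM. IVL and TGM1 passed 1 CPM in each library but lay far below SFN in length-scaled value, at 0.722 ± 0.0538 and 0.797 ± 0.132 against 1415 ± 269. KRTDAP, SBSN and CALML3 had means of 0.0559, 0.0297 and 0.0718 CPM, and TGM5 had no count.

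Of the envelope genes, ABCA12, a lipid transporter of lamellar granules, had 6.15, 5.16 and 8.9 CPM and FLG, profilaggrin, had 5.42, 4.53 and 6.16 CPM. ALOX12B, a lipoxygenase of the lipid barrier, had 3.05, 3.19 and 2.43 CPM and TCHH, trichohyalin, had 3.23, 1.81 and 2.39 CPM. The transcripts of FLG, ABCA12 and TCHH are long, and per length FLG was at 0.335 ± 0.0465 and ABCA12 at 0.633 ± 0.149. SPRR1B, a small proline-rich envelope protein, had 0.592, 1.1 and 0.738 CPM. LOR, the gene of loricrin, had no count, and so did SPRR2A, SPRR2B, SPRR2E, SPRR2F, SPRR2G, CRNN, RPTN, CRCT1 and the late cornified envelope genes LCE1A, LCE2A, LCE2B, LCE3A and LCE3E. The close sequence of SPRR2 copies leaves the division of any reads between them uncertain.

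Of 18 genes for kallikreins and other epidermal proteases with their inhibitors 11 were present, with a median of 4.72 CPM. The membrane inhibitor SPINT2 had 352, 408 and 303 CPM, and ST14, matriptase, had 215, 211 and 207 CPM. KLK5, a protease that cuts desmosomes in the horny layer, had 88.2, 79.6 and 80.4 CPM and KLK10 had 64.8, 61.9 and 54.7 CPM. KLK7, its fellow in shedding, had 2.99 ± 0.221 CPM, and SPINK5, the inhibitor of both, had 9.94 ± 0.464 CPM. Of 31 S100, serpin B and antimicrobial genes 17 were present, with a median of 3.23 CPM. S100A2 had 811, 858 and 606 CPM, S100A6 743, 735 and 649 CPM, S100A11 629, 658 and 568 CPM and S100A10 589, 573 and 527 CPM, each lowest in replicate 3. S100A8 and S100A9, the alarmins of inflamed epidermis, had means of 0.172 and 0.111 CPM, and S100A7, psoriasin, had no count. The defensins DEFB1 and DEFB4A had no count, and RNASE7, a skin ribonuclease that kills bacteria, had 1.23, 1.02 and 1.04 CPM.

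**Figure D3:**
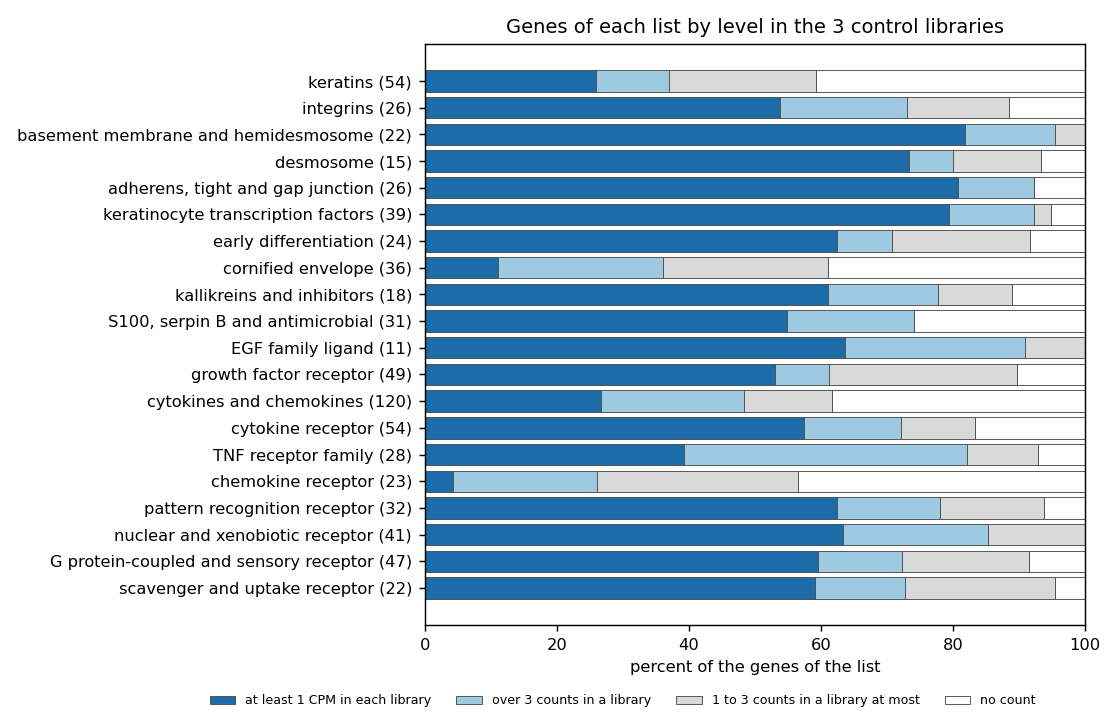
Each bar is a gene list (number of genes in brackets), divided by level in the control libraries: at least 1 CPM in each library, above 3 counts in some library, 1 to 3 counts at most in any library, and no count. The dark part reaches 81.8% for basement membrane and hemidesmosome genes, 11.1% for cornified envelope genes and 4.35% for chemokine receptors.

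Of 39 transcription factors and Notch genes of keratinocytes 31 were present (79.5%), with a median of 12.4 CPM. TP63, the factor of stratified epithelial identity, had 111, 95.7 and 122 CPM, and CEBPB, of early differentiation, had 135, 180.4 and 135 CPM. The Notch ligands JAG2 and JAG1 had 118, 86.8 and 102 CPM for JAG2 and 104, 73 and 119 CPM for JAG1, and EHF, an epithelial ETS factor, had 94.1, 77.1 and 95.7 CPM. KLF4, a barrier factor, had 61.4 ± 8.21 CPM. GRHL3, ZNF750 and PRDM1, known from terminal differentiation, were not present and had means of 0.748, 0.257 and 0.438 CPM. HOPX had no count.

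Most cytokine and chemokine genes were not present. Of 120 cytokine and chemokine genes 32 were present (26.7%), with a median over the list of 0.05002 CPM. By kind these were 14 of 48 interleukin genes, 12 of 34 genes for interferons, colony-stimulating factors, TNF-family and other ligands, and 6 of 38 chemokine genes. IL18, of the IL-1 family and stored in keratinocytes as a precursor, had 85.2, 106 and 79.9 CPM. IL1A and IL1B, the alarm cytokines of skin, had 27.1, 22.5 and 26.8 CPM for IL1A and 21.9, 16.6 and 16.9 CPM for IL1B, and IL1RN, their receptor antagonist, had 18.3, 14.3 and 15.1 CPM. LIF had 16.1, 14.4 and 14.5 CPM and CLCF1 8.84, 9.93 and 7.73 CPM, both of the IL-6 family. IL6 itself had 6.48 ± 0.391 CPM, and IL15 6.42 ± 0.0437 CPM.

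Among the larger ligand levels, TNFSF9, a ligand that costimulates T cells, had 132, 189 and 136 CPM, and CD70, another such ligand, had 58.7, 64.7 and 54.9 CPM. Both were highest in replicate 2, as were 34.2% of all 9289 symbols with a mean of at least 10 CPM. TGFB1 had 86, 76.7 and 77.5 CPM, KITLG, the stem cell factor that acts on melanocytes, had 54.9, 52.7 and 72.2 CPM, TNFSF10, also called TRAIL, had 29.97, 28.7 and 32.9 CPM, and CSF1, of macrophages, had 20.8, 22.9 and 22.4 CPM. The interferons IFNB1 and IFNL1 passed 1 CPM in each library, with 1.73, 1.89 and 2.13 CPM for IFNB1 and 2.23, 2.92 and 2.69 CPM for IFNL1. IFNL2 and IFNL3, near-identical copies among which reads can be split, had means of 1.01 and 1.13 CPM. IFNG, IFNK, IFNA1 and FASLG had no count. TNF and LTB are listed at 0, and each stands on 8 rows, so their absence is uncertain.

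Chemokines present were CXCL16 with 33.7, 31.6 and 32 CPM, CCL2 with 15.1, 18.4 and 18.3 CPM, CXCL10 with 2.6, 3.31 and 4.25 CPM, CXCL11 with 1.69, 1.85 and 2.995 CPM, CXCL14 with 1.59, 1.81 and 1.997 CPM and CCL22 with 1.28, 1.81 and 1.35 CPM. CXCL10 and CXCL11, both induced by interferon, were highest in replicate 3 and lowest in replicate 1. CXCL8, which attracts neutrophils, had 0.865, 0.631 and 1.09 CPM and CXCL1 had 1.69, 1.69 and 0.998 CPM, each under 1 CPM in at least 1 library. CCL20, CXCL5 and CXCL6 had no count. IL4, IL17A, IL17C, IL22 and IL31 had no count, while IL17D and IL23A were present, with 4.14, 5.71 and 4.43 CPM for IL17D and 1.73, 2.6 and 2.08 CPM for IL23A. IL13, IL5 and IL33 averaged 0.0145, 0.0131 and 0.0131 CPM, and TSLP, the epithelial alarm cytokine of allergy, averaged 0.0441 CPM.

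Of 105 cytokine receptor genes 43 were present (41.0%), made up of 31 of 54 genes for receptors of interleukins, interferons and growth cytokines, 11 of 28 of the TNF receptor family and 1 of 23 chemokine receptors. This 41.0% lay below the 58% of protein-coding symbols, as did the 26.7% of cytokine and chemokine genes. The median over the 105 was 0.263 CPM. IL6ST, the shared chain of the IL-6 family, had 97.9, 83.6 and 140.4 CPM and OSMR, for oncostatin M, 41.1 ± 8.89 CPM. TGFBR1 and TGFBR2, which together bind TGF-beta, had 84.3, 79.9 and 96 CPM for TGFBR1 and 48.4 ± 9.56 CPM for TGFBR2. IFNGR1, for interferon gamma, had 72.1, 74.6 and 83.1 CPM. IL13RA1 and IL4R, which form the receptor for IL-4 and IL-13, had 71.1, 62.1 and 77.3 CPM for IL13RA1 and 58.8, 52.6 and 58 CPM for IL4R, and IL17RA had 59.9, 59.5 and 62.9 CPM with its partner IL17RC at 17.2 ± 1.18 CPM.

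Ligands and their receptors are listed together next, in CPM. IL1R1, the signalling receptor for IL1A and IL1B, was present with them, with 1.55, 1.34 and 1.43 CPM, and its partner IL1RAP had 50.5 ± 11.9 CPM. IL18R1, for IL18, was also present, with 2.73 ± 0.458 CPM, and its partner IL18RAP was not, at 0.0131 CPM on average. KIT, the receptor of KITLG, had no count, and CSF1R, the receptor of CSF1, averaged 0.308 CPM. IL7R had 52.2 ± 8.87 CPM, beside IL7 at 3.5 ± 0.343 CPM. IL31RA, the itch receptor chain that pairs with OSMR, averaged 0.209 CPM. IL20RB and IL20RA, for the IL-20 family, had 48.1 ± 0.761 and 5.77 ± 0.546 CPM, and IL22RA1 3.95 ± 0.798 CPM. IFNGR2 stands on more than 1 row and had 2.99 ± 0.644 CPM, and CSF2RA, IL3RA and CRLF2 are listed at 0 on 2 rows each.

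In the TNF receptor family, TNFRSF12A, the receptor of TWEAK, had 148, 126 and 119.6 CPM, TNFRSF21, a death receptor, 129.8, 108 and 131 CPM and LTBR, for lymphotoxin, 114, 118 and 112 CPM. TNFRSF1A, the main TNF receptor of epithelia, had 106, 109 and 95 CPM, and TNFRSF1B was not present at 0.799 ± 0.309 CPM. The TRAIL receptor TNFRSF10B had 66.9, 63.7 and 66.1 CPM and FAS 27, 26.6 and 28 CPM. CD40 averaged 0.212 CPM. ACKR3, a receptor that takes up CXCL12, was the 1 chemokine receptor present, with 10.02, 7.53 and 9.12 CPM. CXCR1, CXCR2, CXCR3 and CCR4 had no count.

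**Figure D4:**
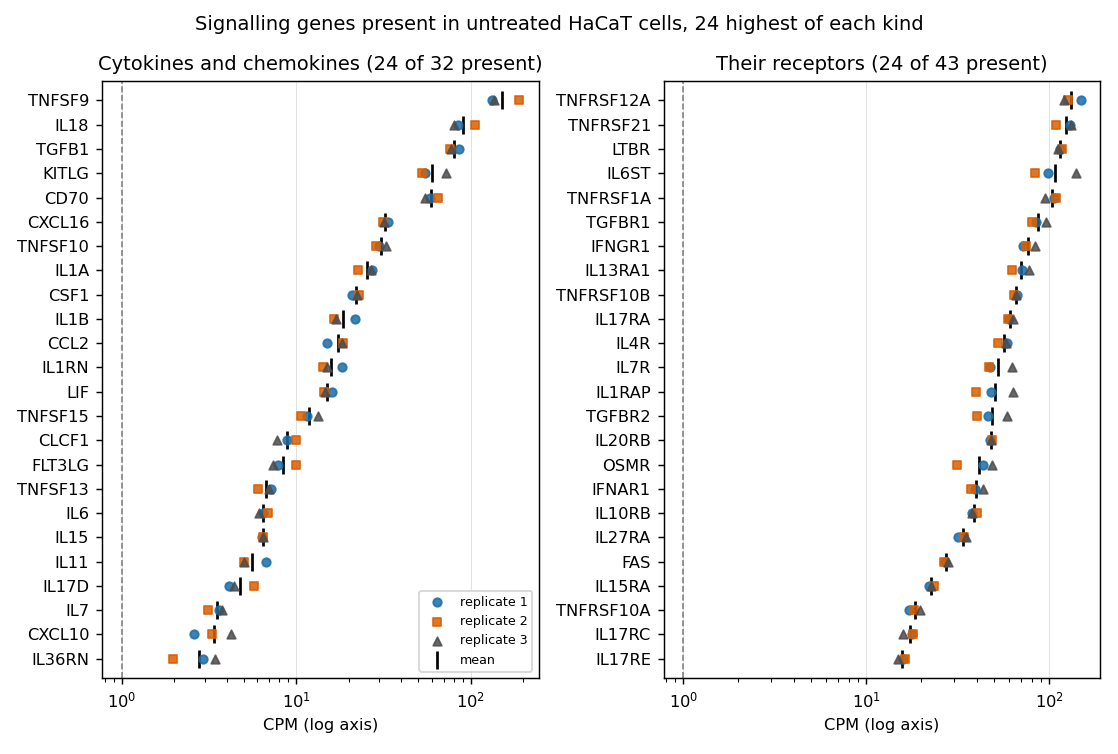
CPM on a log axis for the 24 cytokine and chemokine genes with the largest mean CPM (left; 32 present) and the 24 such receptor genes (right; 43 present), with 1 point per library, a bar at the mean and a dashed line at 1 CPM. TNFSF9 and IL18 have the largest mean CPM of the ligands, and TNFRSF12A and TNFRSF21 of the receptors.

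Of 49 growth factor receptor genes 26 were present (53.1%), with a median of 2.22 CPM. EPHB4, a receptor of ephrin B2, had 209.6, 214 and 212 CPM and IGF2R, which clears IGF2, had 203, 168 and 248 CPM. EGFR, the receptor that drives keratinocyte growth, had 127, 83.5 and 239 CPM, and its 3 libraries differed by 2.87 times between the highest, replicate 3, and the lowest, replicate 2. ERBB2, a partner of EGFR, had 97.6, 92.5 and 94.5 CPM in libraries that stayed close. RYK, a Wnt co-receptor, had 102, 108 and 107 CPM, and TYRO3 59.4, 60.8 and 60.6 CPM. ERBB3 had 31.7 ± 5.46 CPM and ERBB4 averaged 0.058 CPM.

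Among FGF receptors FGFR3 had 38.7 ± 6.71 CPM, FGFR2, whose epithelial form receives keratinocyte growth factor, 36.6 ± 4.76 CPM and FGFR4 24.5 ± 2.83 CPM, while FGFR1, used by fibroblasts, averaged 0.101 CPM. MET had 35.4 ± 8.83 CPM and MST1R, its relative, 51.9 ± 1.82 CPM. PDGFRA, PDGFRB, FLT4 and TIE1 averaged between 0.0152 and 0.0289 CPM, and KDR, TEK, FLT3, KIT and EPHA7 had no count. DDR1, a collagen receptor on 7 rows, had 0.853 ± 0.166 CPM, which is uncertain. Of 11 EGF-family ligand genes 7 were present, with a median of 4.26 CPM. NRG1, which acts through ERBB3 and ERBB4, had 114, 104 and 125 CPM, TGFA 33.8, 31 and 35.2 CPM and AREG, amphiregulin, 12.5, 14.8 and 9.55 CPM. HBEGF had 6.7, 6.82 and 4.51 CPM, and EGF itself averaged 0.344 CPM.

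Cytoplasmic sensors of viral RNA and their adaptor were present. Of 32 pattern recognition genes 20 were present (62.5%), with a median of 4.17 CPM. IFIH1 and DDX58, which detect viral RNA and are also called MDA5 and RIG-I, had 98.2, 102 and 132 CPM for IFIH1 and 86.4, 89.1 and 107 CPM for DDX58. Their adaptor MAVS had 148, 131 and 171 CPM, and IFI16, a DNA sensor, had 127, 129.9 and 147 CPM. MYD88, the adaptor of Toll-like receptors, had 43.5, 41.2 and 50.4 CPM. TLR3, for double-stranded RNA, had 12.6 ± 2.5 CPM and TLR6 11.4 ± 2.02 CPM, while TLR4 had 1.996 ± 0.453 CPM and TLR2 averaged 0.332 CPM. The adaptor PYCARD and the protease CASP1 of inflammasomes had 22.5 ± 2.41 and 7.58 ± 0.596 CPM. NLRP1, the inflammasome sensor of keratinocytes, had 2.78 ± 0.475 CPM, and NLRP3, that of macrophages, had no count.

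Of 41 nuclear and xenobiotic receptor genes 26 were present (63.4%), with a median of 6.10 CPM. RXRA, the common partner of many such receptors, had 343, 329 and 336 CPM, ESRRA 209, 239.5 and 206 CPM and RARG, the retinoic acid receptor of skin, 177, 174 and 169 CPM. AHR, which binds dioxins and polycyclic aromatic compounds, had 79.8, 79.1 and 97.9 CPM, with its partner ARNT at 35.3 ± 4.65 CPM and its repressor AHRR at 3.45 ± 0.779 CPM. NR3C1, the glucocorticoid receptor, had 67.4, 64.3 and 85.8 CPM and VDR, the vitamin D receptor, 54.5 ± 5.54 CPM. ESR1 and PGR, for oestrogen and progesterone, averaged 0.27 and 0.0276 CPM. RXRB, on more than 1 row, had 0.841 ± 0.338 CPM.

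Of 47 G protein-coupled and sensory receptor genes 28 were present (59.6%), with a median of 3.3 CPM. PIEZO1, a mechanically gated channel, had 137, 119.7 and 146 CPM, and F2R and F2RL1, receptors cut by thrombin and by trypsin-like proteases, had 120.5, 105 and 141 CPM for F2R and 101, 83.4 and 116 CPM for F2RL1. TRPM7, an ion channel with a kinase domain, had 75.5, 64 and 102 CPM, P2RY2, for extracellular ATP, 70.3, 55.1 and 70.5 CPM and ADORA2B, for adenosine, 41.5, 39 and 40.2 CPM. TRPV1 and TRPV4, heat-gated channels, had 10.6 ± 1.91 and 10.4 ± 1.22 CPM, while TRPV3, the warmth channel of keratinocytes in skin, averaged 0.33 CPM. Among 22 scavenger and uptake receptors 13 were present, with a median of 27.8 CPM. CAV1, of caveolae, had 796, 661 and 838 CPM, CD44, for hyaluronan, 559, 486 and 616 CPM, CLTC, the clathrin heavy chain, 419, 357 and 490.5 CPM, and TFRC, for transferrin, 296, 274 and 284 CPM. MARCO had no count, and MSR1 and CD36 averaged 0.0573 and 0.0297 CPM.

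The labelled cell type was set against marker genes. All 10 keratinocyte markers were present, with 6957, 6791 and 6877 CPM in sum. Of 10 simple-epithelial markers 5 were present (KRT19, KRT8, KRT7, KRT18 and MUC1), with 5819.7, 6211 and 5045 CPM for the sum of the list. The other 5 (KRT20, CLDN3, VIL1, CDX2 and TFF1) were not present, and 3 of them had no count. KRT20 stands on more than 1 row. Only the 4 keratins present reached 10 CPM in each library, so this sum mostly repeats the keratin values above. Per length, the keratinocyte list summed to 2704, 2836 and 2451. The simple-epithelial list summed to 3241, 3444 and 2743.5, above the keratinocyte list in each library, while in CPM it lay below. Marker sums of other cell types were small: 3.60 to 4.34 CPM for 10 melanocyte genes, 11.4 to 13.01 CPM for 11 fibroblast genes, 1.73 to 2.95 CPM for 10 endothelial genes, 11.3 to 12.2 CPM for 16 leukocyte genes and 8.79 to 16.4 CPM for 8 genes of Merkel cells and nerve. PTPRC, the leukocyte antigen, had 0.0455, 0.0394 and 0.0434 CPM, and PECAM1, of endothelium, 0.0455, 0.0788 and 0.0868 CPM. TYR, of melanocytes, and LUM and THY1, of fibroblasts, had no count. The leukocyte markers present were CD68, of lysosomes, with 9.43, 8.24 and 8.16 CPM and ITGAM with 1.73, 2.05 and 1.997 CPM, and the melanocyte markers present were MITF with 2.1, 1.66 and 2.39 CPM and PMEL with 1.23, 2.21 and 1.56 CPM. COL1A1 was the 1 fibroblast marker present, with 10.6, 11.6 and 10.1 CPM, beside COL1A2, the second chain of the same collagen, at 0.0455, 0 and 0 CPM. SYP, of synaptic vesicles, had 7.92, 15.6 and 10.3 CPM and was the 1 gene of its list present.

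VIM, the vimentin of mesenchymal and of many cultured cells, had only 1.46, 2.05 and 1.78 CPM. VIM-AS1, which lies antisense to it, had 1.37, 1.81 and 1.87 CPM, and without a stated strand setting the reads of the 2 genes cannot be told apart. The cells carried transcripts of division: MKI67, a marker of cycling cells, had 197, 144 and 238 CPM, TOP2A, which untangles replicated DNA, 534, 524 and 615 CPM and PCNA, the replication clamp, 419, 466 and 363 CPM. CCND1, cyclin D1, had 323, 272 and 303 CPM. CDKN1A, a cyclin-dependent kinase inhibitor, had 135, 146 and 139 CPM. CDKN2A, the gene of p16 and p14ARF, had 96 ± 9.79 CPM. TERT, the telomerase protein, was detected in each library, with 19, 12 and 8 counts, but lay under the limit of 1 CPM at 0.562 ± 0.27 CPM.

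The symbols with the most counts are given by CPM, as a ranking of reads and not of levels per length. The 10 highest symbols held 6.74 ± 0.295% of counts, the 100 highest 22.3 ± 0.450% and the 1000 highest 53.1 ± 0.961%. Of the 20 highest by CPM, 6 are of the mitochondrial genome (RNR2, COX1, COX2, COX3, ND4 and ATP6). RNR2, the large mitochondrial ribosomal RNA, had 12532, 12112 and 15376 CPM, and EEF1A1, the elongation factor that brings aminoacyl-tRNA to the ribosome, 9583, 10701 and 9599 CPM. FTH1, the ferritin heavy chain that stores iron, had 7794, 9058 and 6776 CPM and SCD, which makes monounsaturated fatty acids, had 5982, 5303 and 6763 CPM.

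The glycolytic genes GAPDH and PKM had 4976, 4962 and 4491 CPM for GAPDH and 3957, 4081 and 3530.4 CPM for PKM, and the actin genes ACTB and ACTG1 had 5022, 4965 and 4061 CPM for ACTB and 3123, 3015 and 2842 CPM for ACTG1. SLC7A5, an importer of large neutral amino acids, had 3373, 3445 and 3236 CPM. HSP90AA1, a chaperone, had 2939, 3427 and 2980.3 CPM and PPIA, cyclophilin A, 3477, 3832 and 3175 CPM. The ribosomal protein genes RPL13A, RPLP0, RPS2 and RPL8 complete the 20. Many of these genes have processed pseudogenes whose reads may be split from or added to them. Transcripts of the mitochondrial genome took 4.86%, 3.70% and 5.32% of counts, lowest in replicate 2, with 95% Wilson bounds of 4.85 and 4.87, 3.69 and 3.71, and 5.31 and 5.33. The 89 ribosomal protein genes took 8.18%, 9.21% and 7.42%, highest in replicate 2, with bounds of 8.17 and 8.19, 9.20 and 9.22, and 7.40 and 7.43.

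Per length, 18 of the 20 highest symbols were mitochondrial, 12 of them short transfer RNA genes with at most 161 counts in a library, and 1 symbol with only a locus or pseudogene name was passed over. Among symbols with at least 1000 counts in each library, a limit set after the values were seen, RNR2 at 7438 ± 887, COX2 at 6166 ± 1041 and FTH1 at 5745 ± 879 came first. RPLP1, a stalk protein of the ribosome, reached 5153 ± 758 and EEF1A1 3403 ± 278. On the same scale ACTB stood at 2220.0 ± 284, KRT19 at 1700 and SFN at 1415. ATP8 and ATP6 overlap on the mitochondrial genome, as do ND4L and ND4, so their separate values are uncertain.

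Several of the highest genes share a start of pyrimidines, the mark of transcripts whose translation follows growth signals. The 5 bases before and 20 from the annotated start are given on the gene's strand (RefSeq, GRCh38.p14), with the run of C and T from the start in capitals for 3 such genes, beside GAPDH, which has none.
EEF1A1, chr6:73521013-73521037, minus strand: acgttCTTTTTCgcaacgggtttgc
RPL13A, chr19:49487603-49487627, plus strand: tcctcCTTTTCCaagcggctgccga
RPLP0, chr12:120201092-120201116, minus strand: gaggcCCTTCTCTCgccaggcgtcc
GAPDH, chr12:6535259-6535283, plus strand: tccctgtccggatgctgcgcctgcg
The runs are 7, 7 and 9 bases long. SCD, PKM, PPIA, SLC7A5 and HSP90AA1, also among the 20 highest by CPM, have none, and ACTG1 has a run of 3. A start of C followed by at least 4 of C or T was found on the gene's strand in 20 of the 70 genes with a promoter among the 100 highest by CPM (28.6%), in 15 of the 24 ribosomal protein genes among these (62.5%), and in 4.07% of all 21306 promoters. Of the 9177 present symbols with a promoter, 5.48% had such a start. The search used the annotated start alone and only the gene's strand.

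The 3 libraries were alike in rank and differed beyond counting noise. Spearman rank correlations across 12733 genes were 0.994 for replicates 1 and 2, 0.993 for 1 and 3, and 0.986 for 2 and 3. Pearson correlations of log2 levels were 0.994, 0.993 and 0.987 for the same pairs, and genes are not independent replicates. The chi-square of counts over its degrees of freedom was 16.7, 13.9 and 43.2, so no pair differed by counting noise alone. Whether the libraries share an RNA source was not tested. The median absolute log2 difference over 9289 symbols with a mean of at least 10 CPM was 0.13, 0.13 and 0.21. The median coefficient of variation of these symbols was 8.93%, with 5% under 2.21% and 5% above 23.4%. The biological coefficient of variation fitted by edgeR was 12.5%, and it was 9.63% without replicate 3, 10.0% without replicate 2 and 16.3% without replicate 1.

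Replicate 2 and replicate 3 lay on opposite sides of replicate 1 in a way that followed transcript length. Genes were put into 5 groups of equal size by the length implied by the authors' values. With each library centred at its median, the median log2 difference of replicate 3 over replicate 2 went from −0.31 in the group of shortest genes through −0.14, 0.01 and 0.15 to 0.36 in the longest. Across 9808 genes the Spearman correlation of that difference with length was 0.731, and length accounted for 51.0% of its variance as a straight line in log length. With GC content the correlation was −0.420. Within 5 groups of GC content the correlation with length was 0.661 to 0.758, and within the 5 groups of length that with GC content was −0.418 to −0.164. These are descriptions across genes of the same libraries.

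**Figure D5:**
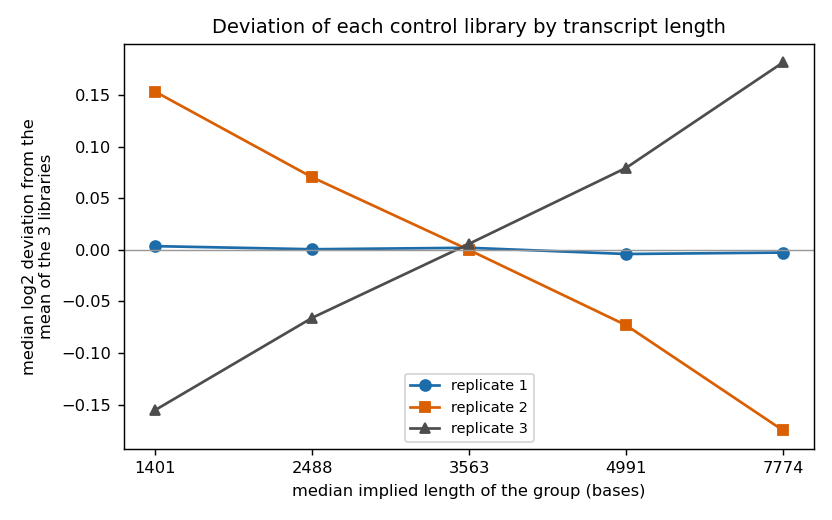
Median log2 deviation of each control library from the mean of the 3 libraries, with each library centred at its median over all genes (vertical axis), in 5 groups of implied transcript length (horizontal axis, labelled by the group's median length in bases). Replicate 1 stays near 0, replicate 2 goes from 0.15 to −0.18 and replicate 3 from −0.16 to 0.18.

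Over all 9289 symbols with a mean of at least 10 CPM, replicate 3 was highest in 47.0% and lowest in 34.1%. Replicate 2 was lowest in 48.2%. The lists varied around these shares, though their counts take genes present at the lower limit of 1 CPM in each library. Among the genes present, replicate 3 was highest in 12 of 14 integrins, 13 of 18 basement membrane genes, 9 of 11 desmosome genes, 16 of 31 transcription factors, 13 of 26 nuclear receptors, 5 of 15 early differentiation genes and 3 of 11 genes of the TNF receptor family. It was lowest in 9 of 14 keratins and 11 of 17 genes of the S100 list. Over all symbols, replicate 3 was highest with replicate 2 lowest in 38.0%, and replicate 2 highest with replicate 3 lowest in 25.6%. Implied length moves with these orders, and its part in the result of any one gene was not tested.

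Only 45 of 9289 symbols (0.484%) differed by more than 2-fold between their highest and lowest library. Replicate 3 was highest in 38 of them, replicate 2 in 6 and replicate 1 in 1. The number was 39 without replicate 1, 15 without replicate 2 and 11 without replicate 3. Of the 45, 11 are genes of small structural RNAs, and 10 of these were highest in replicate 3 and 10 lowest in replicate 1. A further 21 lie in the longest of the 5 length groups, of which 20 were highest in replicate 3 and 20 lowest in replicate 2. The 10 with the largest ratio, passing over 1 symbol with only a clone or pseudogene name, are given next.

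TIAF1, which lies within the gene MYO18A, had 9.15, 23.2 and 1.09 CPM, a ratio of 21.4. MYO18A with TIAF1 in sum had 163, 143 and 181 CPM. ATP5J2-PTCD1 and MINOS1-NBL1, read-through genes that share exons with their neighbours, had 26.1, 61.2 and 6.29 CPM for ATP5J2-PTCD1 and 24.6, 71.3 and 10.9 CPM for MINOS1-NBL1. Reads of such genes can be given to either, and PTCD1 with its read-through gene in sum differed by 1.39 times between libraries. For MINOS1-NBL1 the sum with NBL1 differed by 1.26 times and the sum with MINOS1 by 1.88 times. SLCO5A1, an organic anion transporter gene, had 9.75, 29 and 49.4 CPM. The remaining 6 are small RNAs without a poly(A) tail or small nucleolar RNAs: SNORD3A had 29.6, 3.07 and 5.56 CPM, RNU5A-1 4.51, 9.77 and 26.1 CPM, RNU2-1 62.2, 124 and 299 CPM, RNU4-1 7.52, 17.5 and 32.1 CPM, RNU4-2 10.5, 23.6 and 41.8 CPM and RPPH1, the RNA of ribonuclease P, 41, 66 and 163 CPM. SNORD3A was highest in replicate 1, and the other 5 were highest in replicate 3 and lowest in replicate 1. EGFR came 16th in this order.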

How the data were processed

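RNA of untreated HaCaT cells was measured in 3 libraries, enriched with a poly(A) module and prepared with a NEBNext kit per the labels' protocols. Per the submitters' processing notes bcl2fastq was used and the genome build is GRCh38.p14. Which aligner, counter, annotation release and strand mode were used is not given in the sources used here. Read counts come from the authors' deposited series table, as whole numbers with no normalization. Their deposited file for each library holds log2 values, taken as log2 of 1 plus a value scaled for length and depth, whose kind is not stated. It was undone as 2 to that power minus 1 and called the length-scaled value.

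Of 58173 rows, those of a symbol were summed to 52402 symbols, of which 2687 stand on more than 1 row. CPM used the total counts. Symbols were matched to RefSeq by symbol (44651) or synonym (1726). Wilson intervals and floors cover counting error only, because PCR reads lacking molecular identifiers are not independent. The spread was fitted with edgeR 4.0.16 in R 4.3.3 on 13538 genes and checked on simulated counts. Implied length came from count over length-scaled value, for 10366 symbols with at least 100 counts in each library. The rest used Python 3.11.15 with pandas 2.3.3.

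No group was compared with another and no significance test was run. Gene lists, members and settings were chosen with earlier results of these data known. Genes were named from up to 6 members of a list with the largest mean CPM, the 20 highest symbols by CPM and by length-scaled value, and the 10 with the largest ratio between libraries. Not all of these are given by library, among them the mitochondrial transfer RNA genes. Other list members given by library (among them KRT1, KRT86, IVL, TGM1 and IL1R1) were chosen for their role with values known. Alternatives were other presence limits, TMM scaling, the length-scaled values, exclusion of mitochondrial transcripts, other filters and scalings for the spread, and each library left out. Restriction to symbols on 1 row and centring by length were added after the data were seen. Some list members that were counted are not reported here by name.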

Additional observations from a re-analysis of the deposited data

How the results depend on the processing

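Every result was a count or a level with no test, so an alternative counts as a shift when it moved a count by over 1.5 times, a share by more than 1 SD between libraries, or the coefficient of variation by more than the SD over the values with each library left out. Of 102 alternatives 15 shifted a value and 87 did not. Cornified envelope genes present went from 4 to 7 at 0.5 CPM in each library, and to 1 both at 5 CPM and at a length-scaled value of 1. Cytokines and chemokines present went from 32 to 19 at 5 CPM. The 10 highest symbols held 5.39% and the 100 highest 19.8% of counts without transcripts of the mitochondrial genome, and 34.4% and 58.2% of the length-scaled values, which short transfer RNA genes raise. Keratins held 0.502% of the length-scaled values. Symbols over 2-fold apart went from 45 to 326 at a mean of 1 CPM and to 8 at a mean of 50 CPM. They numbered 11 to 39 with a library left out: 39 without replicate 1, 15 without replicate 2 and 11 without replicate 3. After centring within 5 groups of implied length, which uses only the 9271 nuclear symbols with such a length, they numbered 24, against 35 of the same symbols with each library centred at its overall median. The biological coefficient of variation ranged from 9.63% to 16.3% with each library left out. Symbols present numbered 10157 at 5 CPM and 13390 at 0.5 CPM.

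No paired analysis was possible because 1 group was described and no result comes from a test. Absence of symbols on more than 1 row is uncertain. CPM of genes near 1 rests on few counts in a library.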
